A study of Homo sapiens with 8 samples.

Results

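The 46 genes described here encode proteins of the extracellular matrix and the basement membrane. They were chosen by name as a list, with earlier results of these data known. Each gene was read by the brightest of the probe sets that name it alone, that is, the one with the highest mean over all arrays. All 46 of 46 were found, with 135 probe sets among them, out of 19775 genes and 54613 probe sets in all. Values are log2 signals, so a difference of 1 is a 2-fold change, and levels are compared between arrays and not between genes.

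The study hybridised RNA from 4 groups of cells to Affymetrix U133 Plus 2.0 arrays, with 2 arrays a group and 8 in all. MCF-10F is a spontaneously immortalised, normal-like human breast epithelial line that lacks the estrogen and progesterone receptors, and its cells form tubules in a collagen gel. The trMCF clone 11 cells descend from MCF-10F cells transformed with a high dose of estradiol and are 1 clone, picked as a single ring-cloned colony that forms no tubules. The remaining groups are trMCF clone 11 cells kept for 26 days in 1 µM or 10 µM all trans-retinoic acid (ATRA), the acid form of vitamin A, which acts through nuclear receptors. ATRA was dissolved in DMSO, and whether the MCF-10F and untreated clone arrays received DMSO is not given. Nothing says that replicate arrays were made from different cultures, so p-values measure the spread between these arrays, which may be technical. One trMCF clone 11 array carries a disease state label that goes against its title, and it was grouped by its title.

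Breast epithelium rests on a basement membrane, a sheet in which networks of laminins and of collagen IV are tied together by nidogens and perlecan and are bound by integrins on the cells. The stroma beyond it is built of fibrillar collagens, fibronectin, microfibrils of fibrillin with the latent TGF-β binding proteins, and proteoglycans such as versican and decorin. Most of these proteins are made chiefly by fibroblasts in the gland, while cultured basal epithelial cells make laminins, collagen IV and fibronectin themselves. The questions here were which matrix genes differed between MCF-10F and the transformed clone, which of these came back after ATRA and which stayed low.

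The stretch upstream of the start of 3 of these genes is shown because they are the extremes of what follows. FN1 and POSTN had the most negative differences in the clone. THBS2 was higher in the clone and came back with ATRA. Sequences are from RefSeq on GRCh38.p14 and run 5′ to 3′ on the gene's strand, with motif matches on either strand in capitals. The FN1 stretch lies on chromosome 2 at chr2:215436069-215436318 (minus strand), the POSTN stretch at chr13:37598769-37599018 (minus strand) and the THBS2 stretch at chr6:169253847-169254096 (minus strand).
FN1: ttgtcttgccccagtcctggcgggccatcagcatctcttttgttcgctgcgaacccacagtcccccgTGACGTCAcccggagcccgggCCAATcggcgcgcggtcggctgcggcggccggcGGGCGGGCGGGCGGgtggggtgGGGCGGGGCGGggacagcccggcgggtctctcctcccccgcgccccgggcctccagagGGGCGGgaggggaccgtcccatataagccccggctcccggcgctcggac
POSTN: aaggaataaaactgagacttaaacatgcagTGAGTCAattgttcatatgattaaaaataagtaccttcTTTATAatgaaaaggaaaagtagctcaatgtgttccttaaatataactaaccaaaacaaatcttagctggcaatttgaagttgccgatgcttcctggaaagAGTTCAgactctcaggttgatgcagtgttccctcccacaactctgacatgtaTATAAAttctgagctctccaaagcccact
THBS2: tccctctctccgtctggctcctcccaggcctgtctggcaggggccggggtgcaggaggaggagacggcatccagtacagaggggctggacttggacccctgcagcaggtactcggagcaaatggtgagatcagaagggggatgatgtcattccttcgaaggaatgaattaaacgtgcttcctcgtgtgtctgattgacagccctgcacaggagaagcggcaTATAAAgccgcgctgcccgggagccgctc
The 7 motifs searched were the TATA box (TATAAA), the CCAAT box (CCAAT), the GC box (GGGCGG), the cyclic AMP response element (TGACGTCA), the AP-1 site (TGANTCA) and the nuclear receptor half-sites AGGTCA and AGTTCA. No motif's letters contain another's, and adjacent GC boxes can overlap each other. Capitals in FN1 mark 1 cyclic AMP response element, a CCAAT box and GC boxes. Those in POSTN mark an AP-1 site, TATA boxes in both orientations and an AGTTCA half-site, and those in THBS2 mark a TATA box only.

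COL4A1 and COL4A2, which encode the 2 chains of the most common collagen IV, start 126 bases apart and run in opposite directions. The sequence between the starts, chr13:110307158-110307283, is shown on the plus strand because both genes are members and share it, with a CCAAT box and a GC box in capitals.
COL4A1 and COL4A2: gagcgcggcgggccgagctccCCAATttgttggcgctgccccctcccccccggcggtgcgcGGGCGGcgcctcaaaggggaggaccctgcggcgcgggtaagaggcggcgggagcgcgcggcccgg
COL4A5 and COL4A6 on chromosome X share a start region in the same way, with 379 bases between their starts. RefSeq windows of 300 bases, from 250 before to 50 after the start, were at hand for 36 of the 46 genes and for 27305 genes in all. Some genes have several windows (35116 windows in all), and a gene was counted if any of its windows held the motif. The GC box was found for 28 of the 36 genes (77.8%) and for 48.3% of all genes. The CCAAT box was in 12 (33.3% against 39.7%), the TATA box in 5 (13.9% against 14.0%) and the AP-1 site in 3 (8.33% against 9.37%). The cyclic AMP response element was found in FN1 and LTBP1 (5.56% against 2.25%). AGGTCA was in 1 member, COL7A1 (2.78% against 16.5%), and AGTTCA in POSTN, THBS1 and VCAN (8.33% against 12.6%). These are matches of letters within the windows and say nothing of which factors bind.

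Across the list, the median level of the matrix genes was highest in MCF-10F and lowest after ATRA. The median signal of the 46 genes was 578 and 408 on the MCF-10F arrays, 135 and 144 on the trMCF clone 11 arrays, 87.9 and 89.1 on the 1 µM arrays and 94.5 and 77.3 on the 10 µM arrays. The medians of all probe sets lay between 47.3 and 48.8 on all 8 arrays. Gene by gene, the median difference of the 46 from the clone was only -0.04 at 1 µM and -0.07 at 10 µM. Over all genes it was -0.06 and -0.01. On all 4 ATRA arrays, 27 of the 46 genes lay below both MCF-10F arrays, against 16.1% of all genes. In all, 22 genes passed the test (Benjamini-Hochberg adjusted p under 0.05 over all probe sets, limma) in at least 1 comparison between groups and 24 passed in none. Over all genes 10.5% passed in at least 1. In a bulk sample, fewer cells that express a gene and less RNA per cell cannot be told apart.

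**Figure D1:**
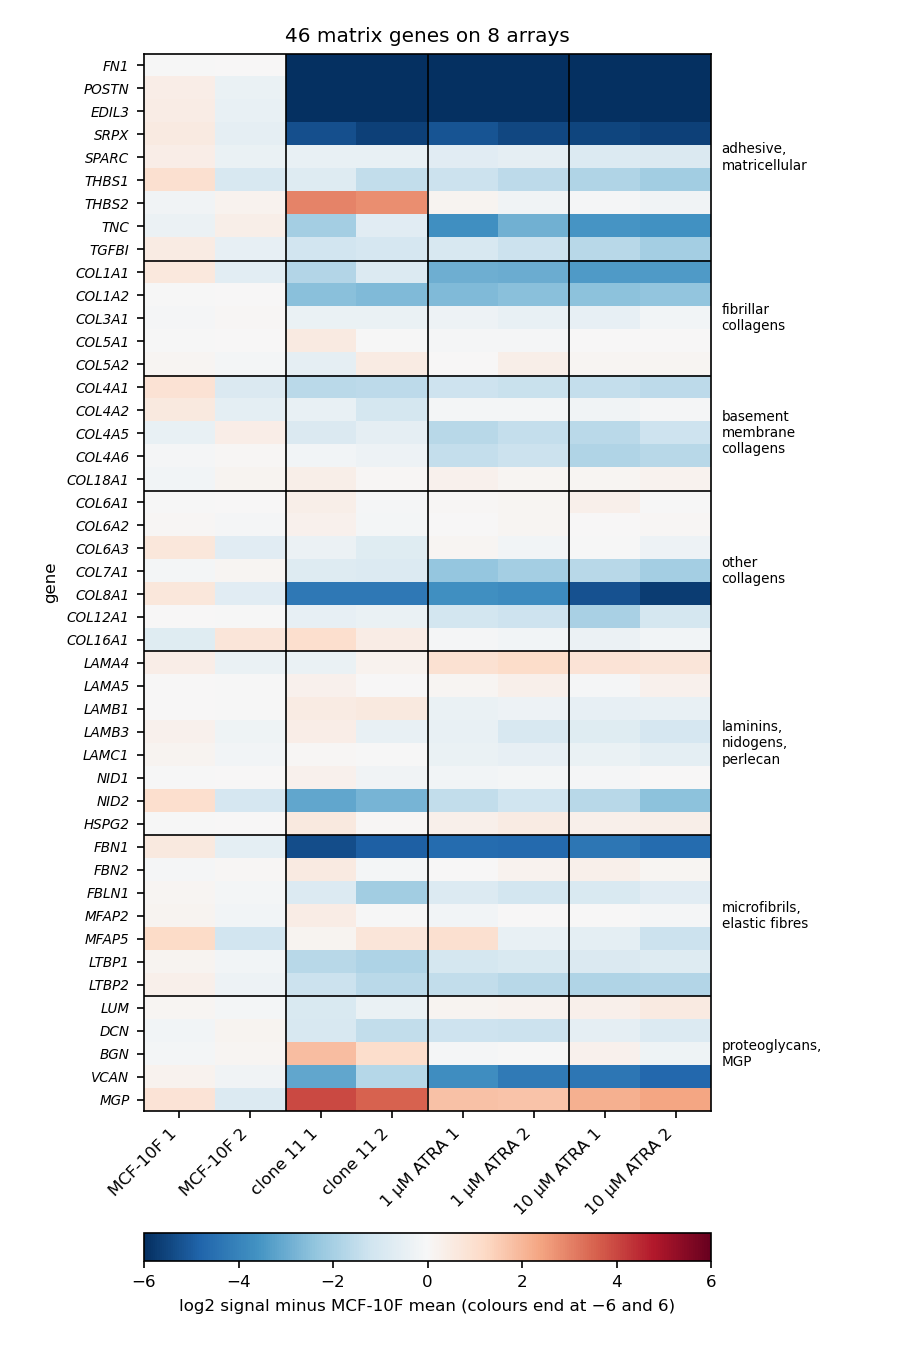
Each row is 1 of the 46 matrix genes, ordered by role, and each column 1 of the 8 arrays. Colour gives the log2 signal minus the MCF-10F mean, from blue (lower) to red (higher), with colours ending at -6 and 6. FN1, POSTN, EDIL3, SRPX, FBN1 and COL8A1 are blue on all 6 clone and ATRA arrays, THBS2 is red on the 2 untreated clone arrays alone, and most laminin genes stay pale.

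All epithelial markers had mean signals above 16 in all 4 groups, but KRT19, and KRT14 at 10 µM, did not lie far above it. Summed signals of 5 luminal and general epithelial markers, KRT8, KRT18, KRT19, CDH1 and EPCAM, ranged from 22051 to 26451 over all 8 arrays. The summed signal of 3 basal markers, KRT5, KRT14 and CDH3, was 8312 to 27521 in MCF-10F, 15437 to 15721 in the clone, 6704 to 7539 at 1 µM and 4649 to 5500 at 10 µM, lower on all 4 ATRA arrays than on all 4 untreated ones. KRT14 read 13.16 and 10.38, 11.66 and 12.15, 7.73 and 6.86 and 5.40 and 5.09 in these groups and fell by 6.66 (log2) from the clone at 10 µM (adjusted p = 0.00836). KRT5 and CDH3 differed from the clone by -0.63 and -0.88 at 1 µM and by -1.28 and -1.09 at 10 µM and did not pass. The summed level of mesenchymal markers was highest in MCF-10F too. All 12 were measured, and their summed signal was 7882 to 14783 in MCF-10F, 3772 to 6065 in the clone, 1745 to 1803 at 1 µM and 1670 to 1809 at 10 µM. Against MCF-10F, 3 of the 12 were lower in the clone (CDH2, FAP and PRRX1) and 3 at 1 µM (FAP, PRRX1 and VIM). At 10 µM 5 were lower (CDH2, FAP, PRRX1, S100A4 and VIM). Over all genes 2.64%, 0.47% and 1.81% were lower. In the clone 8 of the 12 lay below MCF-10F and 4 above, none of these 4 passing. The 4 were ACTA2 (1.45), TWIST1 (0.67), THY1 (0.45) and PDGFRA (0.23). From the clone to 10 µM, CDH2 rose (2.37, limma, adjusted p = 0.00975) and 3 of the 12 fell (3.94% and 3.89% of all genes). Markers of other cell types were dim apart from PECAM1 and CD14. The summed signal of 5 endothelial markers was 200 to 1172 in MCF-10F, 251 to 366 in the clone, 685 to 867 at 1 µM and 936 to 1290 at 10 µM, most of it from PECAM1, which read 7.05 and 8.06 in the clone and 9.68 and 10.21 at 10 µM (2.39, adjusted p = 0.206). That of 4 leukocyte markers was 168 to 521, 215 to 307, 553 to 645 and 712 to 782, with ATRA most of it from CD14, whose difference of 2.27 at 10 µM did not pass (adjusted p = 0.171) but did in a fit of the 4 compared arrays (adjusted p = 0.0298). That of 4 adipocyte markers was 102 to 104, 110 to 114, 115 to 123 and 140 to 155, and PLIN1 passed as higher than MCF-10F at 10 µM (0.88, adjusted p = 0.0476). The defining markers PTPRC of leukocytes and ADIPOQ of adipocytes had mean signals under 16 in all groups. The part of these markers in the results below was not tested.

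The arrays of a group were not equally close. Of the 46 genes, 12 (26.1%) differed over 2-fold between the MCF-10F arrays, against 3.84% of all genes. Replicate 1 was the higher array for 11 of these 12, among them COL4A1, COL8A1, NID2, FBN1 and THBS1. The untreated clone arrays differed over 2-fold for 4 of the 46 genes (TNC, COL5A2, FBLN1 and VCAN), the 1 µM arrays for 1 (MFAP5) and the 10 µM arrays for none.

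In trMCF clone 11 against MCF-10F, 10 of the 46 genes were lower and 2 were higher. Over all 19775 genes, 2.64% were lower and 1.88% were higher. The 10 were the adhesive genes FN1, POSTN, EDIL3 and SRPX, the collagens COL1A2 and COL8A1, the microfibril genes FBN1, LTBP1 and LTBP2, and the proteoglycan gene DCN. The 2 higher genes were THBS2 and MGP. The median difference of the 46 genes was -0.49, against 0.06 over all genes, and 18 of the 46 (39.1%) lay at least 2-fold lower, against 6.64% of genes.

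FN1 encodes fibronectin, the large adhesive glycoprotein that integrins assemble into fibrils. Its log2 signals were 13.85 and 13.85 in MCF-10F, 5.95 and 5.79 in the clone, 6.40 and 6.23 at 1 µM and 6.62 and 6.09 at 10 µM. MCF-10F stood apart from all 6 other arrays, which lay within 1 log2 unit of each other. The clone was 253-fold lower (log2 difference -7.98 ± 0.15, adjusted p = 0.000107). The 6 other FN1 probe sets fell too, by 1.62 to 9.92 on the log2 scale, and all passed.

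POSTN encodes periostin, a matricellular protein that binds fibronectin and collagen I. It read 11.95 and 11.18 in MCF-10F and 3.26 and 3.24 in the clone, a difference of -8.32 ± 0.26 (log2, adjusted p = 0.000918). EDIL3, an integrin-binding secreted protein, read 9.86 and 8.93 against 3.08 and 3.03 (-6.33 ± 0.31, adjusted p = 0.00314). Both clone values are under a signal of 16, around and below which signals lie near background. With all lower signals set to 16, POSTN was 190-fold and EDIL3 42.0-fold lower, with adjusted p of 0.0309 and 0.054. SRPX, a sushi-repeat protein found at the cell surface and in the matrix, read 9.98 and 8.89 against 4.14 and 3.81 (-5.46 ± 0.37, adjusted p = 0.00616). In none of the 3 genes did the groups come near each other. The POSTN value rests on a probe set whose suffix marks shared targets. Without such probe sets POSTN differed by -0.68 and did not pass (adjusted p = 0.0916), and 1 of its 3 other probe sets passed.

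THBS2 went the other way. It encodes thrombospondin-2, a matricellular inhibitor of angiogenesis, and read 4.45 and 4.90 in MCF-10F and 7.65 and 7.45 in the clone. It rose 7.34-fold (log2 difference 2.88 ± 0.22, adjusted p = 0.00798). The other 4 adhesive genes did not pass. TNC (tenascin-C) read 9.39 and 10.09 against 7.68 and 9.04, with the clone arrays over 2-fold apart, and the differences of SPARC, THBS1 and TGFBI were -0.44, -1.13 and -1.09.

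Among the collagens, COL1A2 and COL8A1 fell. COL1A2 encodes the α2 chain of collagen I and read 7.54 and 7.59 in MCF-10F and 5.07 and 4.94 in the clone (-2.56 ± 0.14, adjusted p = 0.00486). Without probe sets of shared targets COL1A2 differed by -0.54 (adjusted p = 0.234) and passed against MCF-10F at neither dose (adjusted p = 0.563 and 0.496). COL8A1 encodes a short-chain collagen of subendothelial and other basement membranes and read 10.57 and 9.18 against 5.58 and 5.57 (-4.30 ± 0.43, adjusted p = 0.0146). COL1A1, the partner chain of COL1A2, read 10.39 and 9.13 against 7.98 and 8.95 and did not pass (adjusted p = 0.215), the replicates of each group being about as far apart as the groups. None of the 5 basement membrane collagens passed, with differences of -1.59 (COL4A1), -0.75 (COL4A2), -0.72 (COL4A5), -0.23 (COL4A6) and 0.22 (COL18A1). The collagen VI genes COL6A1 and COL6A2 differed by 0.14 and 0.07. COL7A1, the anchoring fibril collagen, differed by -0.79 ± 0.17 and missed the threshold (adjusted p = 0.0657).

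No laminin, nidogen or perlecan gene passed in this comparison, and their median difference was 0.02 over 8 genes. LAMA5, LAMB3, LAMC1, NID1 and HSPG2 (perlecan) lay between -0.03 and 0.34 of MCF-10F on the log2 scale. NID2 (nidogen-2) had the widest gap, 8.29 and 6.25 against 4.15 and 4.49. The groups did not overlap, but the MCF-10F arrays were over 2-fold apart and the difference of -2.95 ± 0.62 did not pass (adjusted p = 0.0654). The 95% interval of that difference ran from -4.48 to -1.42.

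The microfibril genes gave 3 of the 10 lower genes. FBN1, which encodes fibrillin-1, the backbone of microfibrils, read 11.44 and 10.23 in MCF-10F and 5.53 and 5.95 in the clone (34.2-fold lower, log2 difference -5.10 ± 0.40, adjusted p = 0.00852). LTBP1 and LTBP2 belong to the latent TGF-β binding proteins, of which LTBP1 holds latent TGF-β in the matrix. LTBP1 read 10.33 and 9.96 against 8.47 and 8.27 (-1.77 ± 0.19, adjusted p = 0.0163), and LTBP2 read 9.90 and 9.24 against 8.26 and 7.97 (-1.45 ± 0.25, adjusted p = 0.0444). FBLN1, MFAP2 and MFAP5 differed by -1.44, 0.22 and 0.45 and did not pass, and FBN2 was under 16 in all groups.

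Among the proteoglycans, DCN (decorin, which binds collagen fibrils) read 7.33 and 7.64 in MCF-10F and 6.51 and 6.02 in the clone (-1.22 ± 0.22, adjusted p = 0.0451), a call that rests on 1 of 7 probe sets and was lost in 11 of 16 other settings. MGP, the matrix Gla protein, an inhibitor of calcification, was raised 13.3-fold, from 9.15 and 7.54 to 12.30 and 11.86 (3.74 ± 0.50, adjusted p = 0.0269), and without probe sets of shared targets it differed by 2.61 (adjusted p = 0.166). VCAN (versican) read 11.91 and 11.53 against 8.59 and 10.02, without overlap, and missed the threshold (-2.42 ± 0.48, adjusted p = 0.0569). BGN (biglycan) was 5.05 and 5.30 against 7.01 and 6.21 and missed it too (1.44 ± 0.28, adjusted p = 0.054).

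**Figure D2:**
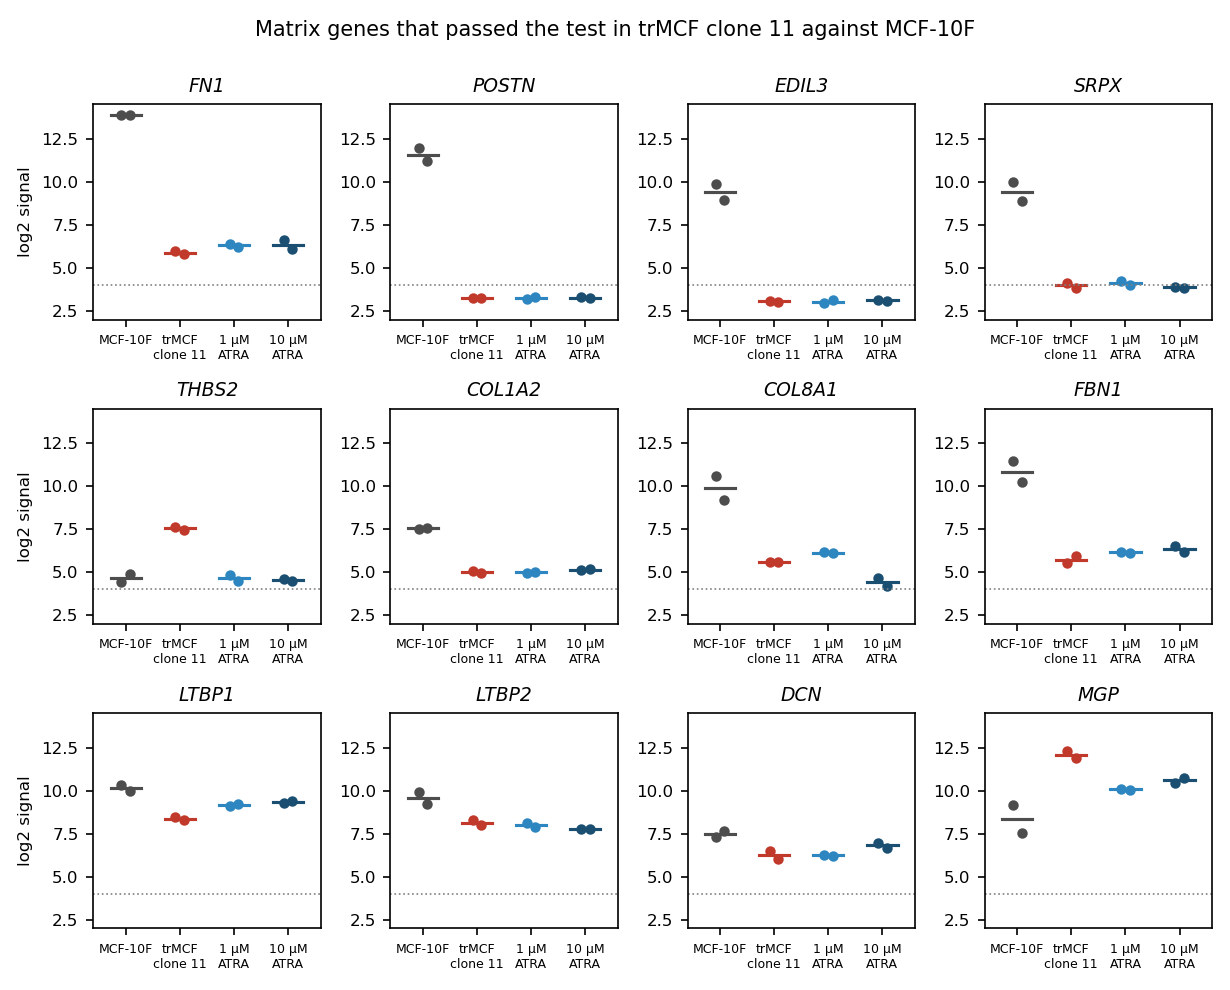
Log2 signal of the 12 genes that passed in trMCF clone 11 against MCF-10F, 1 panel a gene. Points are arrays, short lines are group means of 2 arrays, and the dotted line marks a signal of 16. FN1, POSTN, EDIL3, SRPX, COL1A2, COL8A1 and FBN1 stay far below MCF-10F at both ATRA doses, LTBP1 lies in between, and THBS2 is back at the MCF-10F level.

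These 12 calls used the fit of 6 arrays, whose estimate of spread includes the 1 µM arrays. With the 4 compared arrays alone, or without either 1 µM array, 3 of the 12 passed (FN1, POSTN and EDIL3), and FN1 alone passed this comparison under every setting tried. LTBP1, LTBP2 and DCN also lost their calls without MCF-10F replicate 1 (9 members then passed), and MGP and LTBP2 theirs without trMCF clone 11 replicate 1 (11 then passed).

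With 1 µM ATRA, none of the 46 genes rose above the clone and 3 fell, THBS2, COL4A6 and COL7A1. Over all genes 0.971% rose and 0.925% fell. At an unadjusted p under 0.05, limma placed 5 members higher and 12 lower (11.8% and 9.83% of all genes), and 1 member passed as higher in the fit of all 8 arrays (LTBP1) and in that of the 4 compared arrays (NID2). Of the 10 genes lower in the clone, therefore, none returned by the rule used (higher than in the clone, within 2-fold of MCF-10F and not passing against it). For comparison, 96 of the 523 genes lower in the clone (18.4%) met that rule over the whole array, and 75 (14.3%) stayed low, that is, still passed as lower than MCF-10F.

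Against MCF-10F, the 1 µM cells had 10 lower members and 0 higher. The shares over all genes were 0.47% and 0.142%, and at an unadjusted p under 0.05 there were 21 lower and 2 higher members (6.47% and 6.07% of all genes). The median difference of the 46 was -0.65, against 0.00 over all genes. In this group 7 of the 10 genes lower in the clone stayed low, FN1, POSTN, EDIL3, SRPX, COL1A2, COL8A1 and FBN1. They regained between -0.611% and 13.3% of their log2 difference from MCF-10F. Without either 1 µM array, 1 member (FN1) passed against MCF-10F and 0 against the clone.

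POSTN read 3.21 and 3.34 and EDIL3 2.96 and 3.11 at 1 µM, near the clone's levels. SRPX read 4.24 and 3.99. All 3 lay near or under a signal of 16, as in the untreated clone. FBN1 read 6.20 and 6.15, slightly above the clone arrays and 25.3-fold below MCF-10F (-4.66 ± 0.40, adjusted p = 0.0182). COL1A2 read 4.94 and 5.04, at the level of the clone arrays. COL8A1 read 6.18 and 6.11, above both clone arrays, and regained 13.3%, but the difference of 0.57 ± 0.43 did not pass (adjusted p = 0.538). Without probe sets of shared targets 5 of the 7 stayed low at 1 µM, all but POSTN and COL1A2.

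FN1 at 1 µM was 0.44 ± 0.15 above the clone (adjusted p = 0.198) and 186-fold below MCF-10F (adjusted p = 0.000151). Its probe sets did not all give the same answer on the first point. The FN1 probe set with the highest MCF-10F level read 14.00 and 13.98 in MCF-10F, 4.06 and 4.08 in the clone, 5.73 and 5.68 at 1 µM and 6.31 and 5.95 at 10 µM. It rose with ATRA (1.63 ± 0.14 at 1 µM, adjusted p = 0.018, and 2.06 ± 0.15 at 10 µM, adjusted p = 0.00239). Even so it remained -8.29 and -7.86 from MCF-10F, so most of the gap on the log2 scale was left.

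LTBP1, LTBP2 and DCN were in between, passing neither as returned nor as low. LTBP1 read 9.11 and 9.24, above both clone arrays and below both MCF-10F arrays, and regained 45.4% of its difference (0.81 ± 0.19 from the clone, adjusted p = 0.0973). LTBP2 read 8.11 and 7.90 and DCN 6.25 and 6.21, near the clone arrays. Both stayed more than 2-fold under MCF-10F (-1.56 and -1.25) without passing (adjusted p = 0.0977 and 0.11).

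THBS2, which had been high in the clone, came back to the MCF-10F level. It dropped to 4.82 and 4.48 at 1 µM (-2.90 ± 0.22 from the clone, adjusted p = 0.0162) and differed from MCF-10F by -0.02 ± 0.22. The MCF-10F and 1 µM arrays overlapped, and the clone arrays lay over 2-fold above both groups. MGP read 10.09 and 10.05, below both clone arrays and above both MCF-10F arrays. The difference of -2.01 ± 0.50 from the clone did not pass (adjusted p = 0.112). BGN, which had missed the threshold in the clone, read 5.12 and 5.13, a difference of -0.04 from MCF-10F.

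**Figure D3:**
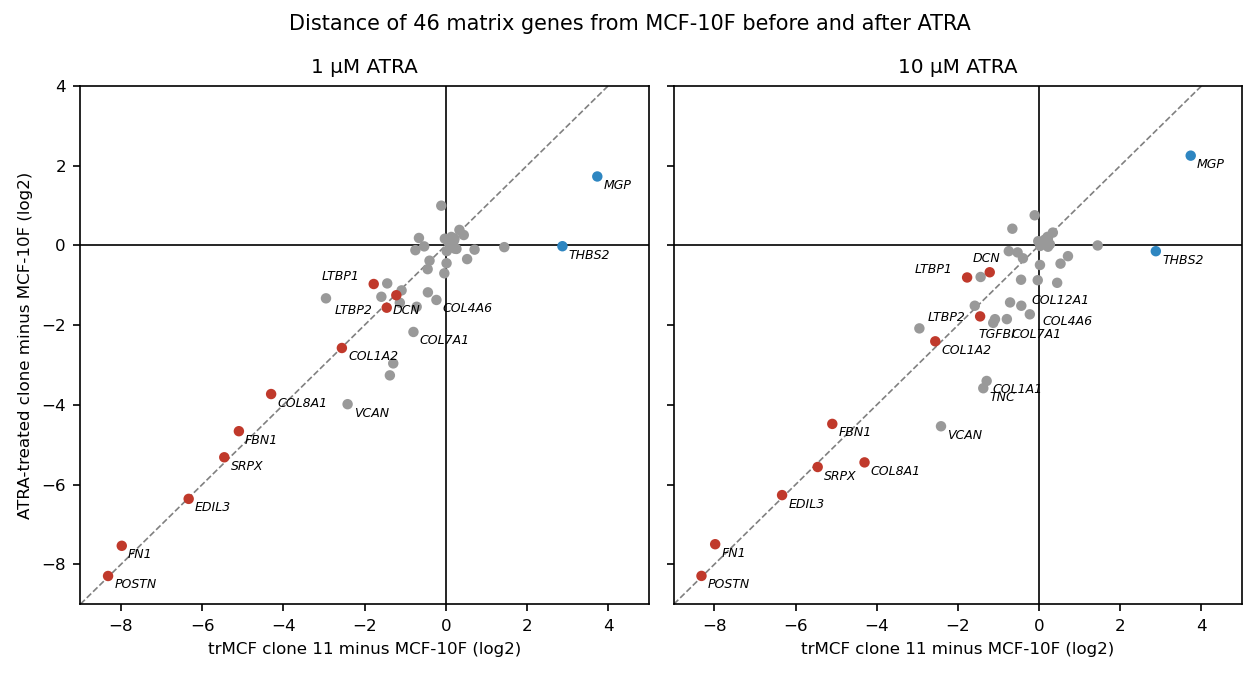
Each point is 1 of the 46 matrix genes. The horizontal axis is its log2 difference in trMCF clone 11 from MCF-10F, and the vertical axis that in the clone after 1 µM (left) or 10 µM (right) ATRA from the same MCF-10F arrays, which both axes share. Red and blue points passed as lower or higher in the clone, a full return lies on the horizontal line at 0 and no change on the dashed diagonal: POSTN, EDIL3, SRPX and COL1A2 lie on the diagonal, THBS2 on the line at 0, and VCAN, TNC and COL1A1 below the diagonal.

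At 10 µM the fit used all 8 arrays. Against the clone, 2 members rose (LTBP1 and LUM) and 8 fell (THBS2, TNC, COL1A1, COL4A6, COL7A1, LAMB1, BGN and VCAN). Over all genes 3.94% rose and 3.89% fell. LTBP1 read 9.30 and 9.38, above both clone arrays and below both MCF-10F arrays. It rose by 0.97 ± 0.17 (adjusted p = 0.023), lay within 2-fold of MCF-10F (-0.80, adjusted p = 0.0752) and was the 1 member of the 10 to return by the rule, having regained 54.7% of its log2 difference. Its rise did not pass in 7 of 16 other settings, among them each one that left out an ATRA array, with adjusted p up to 0.166, and without MCF-10F replicate 1 it did not pass as lower in the clone. Without either 10 µM array 1 member (THBS2) passed against the clone, and without either 1 µM array 3 did. Over the array, 225 of the 523 genes lower in the clone (43.0%) returned at 10 µM and 160 (30.6%) stayed low. The shares given for 1 µM came from a fit without the 10 µM arrays, so the shares cannot be compared between the doses. With all 8 arrays in the fit, LTBP1 returned at 1 µM as well.

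LUM (lumican, a small leucine-rich proteoglycan) read 3.78 and 3.50 in MCF-10F, 2.74 and 3.22 in the clone, 3.82 and 3.84 at 1 µM and 3.96 and 4.16 at 10 µM. Nearly all of these lie under a signal of 16, and with lower signals set to 16 its difference from the clone was 0.08 in place of 1.08. A change of this gene was therefore not detectable above background.

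Against MCF-10F, 15 members were lower at 10 µM and 0 were higher. The shares over all genes were 1.81% and 0.759%, and at an unadjusted p under 0.05 there were 25 lower and 2 higher members (8.76% and 7.69% of all genes). The median difference was -0.80, against 0.05 over all genes. Of the 10 genes lower in the clone 8 stayed low, the 7 named for 1 µM and LTBP2. FN1 was 181-fold lower (adjusted p = 3.68e-05), POSTN differed by -8.29 ± 0.24 and EDIL3 by -6.27 ± 0.28, which are -7.57 and -5.39 with lower signals set to 16. FBN1 read 6.51 and 6.20, still 22.3-fold lower (adjusted p = 0.00315). LTBP2 read 7.78 and 7.80 (-1.78 ± 0.23, adjusted p = 0.0152), and 7 to 18 members passed when single arrays were left out, 7 or 8 of them without a 10 µM array. DCN, at 6.95 and 6.67, was in between (-0.67 ± 0.21, adjusted p = 0.196).

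COL8A1 read 4.67 and 4.19 at 10 µM, below both clone arrays, whereas both 1 µM arrays lay above them. From the clone the 10 µM difference was -1.14 ± 0.41 (adjusted p = 0.165), and from MCF-10F it was -5.44 ± 0.41 (adjusted p = 0.00225). THBS2 was 4.58 and 4.47, a fall of 8.12-fold from the clone (adjusted p = 0.00182) that left it -0.14 ± 0.20 from MCF-10F. MGP read 10.46 and 10.73, still above both MCF-10F arrays (2.25 ± 0.46, adjusted p = 0.0683).

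A second set of matrix genes passed as lower than MCF-10F at 10 µM without having passed in the clone, as did 0.976% of all genes. These 7 were TNC, TGFBI, COL1A1, COL4A6, COL7A1, COL12A1 and VCAN. The clone calls came from the fit of 6 arrays and the 10 µM calls from that of 8, so the set depends on both. With all 8 arrays in the fit, 16 members passed in the clone in place of 12. Among LUM, DCN, BGN, VCAN and MGP, 4 then passed in place of 2. Among COL6A1, COL6A2, COL6A3, COL7A1, COL8A1, COL12A1 and COL16A1, 2 passed in place of 1. Some of the 7 may therefore pass in the clone too when 1 fit is used for both. VCAN, the large chondroitin sulfate proteoglycan versican, read 11.91 and 11.53 in MCF-10F, 8.59 and 10.02 in the clone, 8.01 and 7.46 at 1 µM and 7.37 and 7.00 at 10 µM. Each group lay below the one before it without overlap, although the clone arrays were over 2-fold apart. Its difference from MCF-10F was -3.98 ± 0.48 at 1 µM (adjusted p = 0.0467) and -4.54 ± 0.44 at 10 µM (adjusted p = 0.00585), and the 4 other VCAN probe sets differed by -4.00 to -4.65 at 10 µM. The 1 µM call was lost in 6 of 15 other settings, and the fall from the clone at 10 µM in 10 of 16.

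TNC read 6.08 and 6.88 at 1 µM and 6.20 and 6.11 at 10 µM, below both clone arrays. At 10 µM it fell by 2.21 from the clone (limma, adjusted p = 0.0406) and by 3.58 from MCF-10F (adjusted p = 0.016). The TNC call against the clone was lost in 7 of 17 other settings and that against MCF-10F in 4 of 17. COL1A1 read 6.81 and 6.78 at 1 µM and 6.37 and 6.34 at 10 µM, also below both clone arrays (-2.11 ± 0.44 from the clone, adjusted p = 0.0377, and -3.40 ± 0.44 from MCF-10F, adjusted p = 0.0149). Its 4 other probe sets, all dimmer, differed from MCF-10F by -1.72 to 0.32 at 10 µM and none passed, so the size of the COL1A1 change depends on the probe set. The COL1A1 call against the clone was lost in 9 of 16 other settings and that against MCF-10F in 6 of 16.

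COL7A1, whose product anchors the basement membrane to the stroma, read 8.02 and 8.26 in MCF-10F, 7.35 and 7.34 in the clone, 5.84 and 6.10 at 1 µM and 6.46 and 6.12 at 10 µM. All ATRA arrays lay below all untreated arrays. It fell from the clone at 1 µM (-1.38 ± 0.17, adjusted p = 0.0321) and at 10 µM (-1.05 ± 0.18, adjusted p = 0.021), and was -2.17 ± 0.17 and -1.85 ± 0.18 from MCF-10F. Without the first clone array the 1 µM call was lost, as it was without either 1 µM array. The fall from the clone at 10 µM was lost in 6 of 17 other settings.

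COL4A6, a minor chain of collagen IV found in the basement membranes of some epithelia, read 9.86 and 10.04 in MCF-10F, 9.78 and 9.66 in the clone, 8.52 and 8.64 at 1 µM and 8.13 and 8.31 at 10 µM. It too was lower on all ATRA arrays than on all untreated ones (-1.14 ± 0.15 from the clone at 1 µM, adjusted p = 0.0393, and -1.50 ± 0.15 at 10 µM, adjusted p = 0.00459). The 1 µM call was lost in 7 of 16 other settings, among them leaving out trMCF clone 11 replicate 1 or either 1 µM array, and the mean over its probe sets differed by -0.63. Its head-to-head neighbour COL4A5 read 10.61 and 11.45, 10.15 and 10.47, 9.36 and 9.62 and 9.41 and 9.78 in the same 4 groups. The COL4A5 arrays were lowest with ATRA as well, but -0.82 and -0.72 from the clone did not pass. Of the other pair, COL4A1 read 9.18 and 9.10 at 1 µM and COL4A2 10.89 and 10.86, and neither passed in any comparison.

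COL12A1, a fibril-associated collagen, read 11.19 and 11.17 in MCF-10F, 10.71 and 10.78 in the clone, 10.09 and 9.92 at 1 µM and 9.22 and 10.12 at 10 µM (-1.51 ± 0.27 from MCF-10F, adjusted p = 0.0457). That call was lost in 9 of 17 other settings, among them leaving out either MCF-10F array, and none of the gene's 4 other probe sets passed. TGFBI, a secreted protein induced by TGF-β, read 13.92 and 12.96, 12.29 and 12.41, 12.49 and 12.13 and 11.76 and 11.41 in the same order (-1.85 ± 0.31 at 10 µM from MCF-10F, adjusted p = 0.0374). For both genes the 10 µM arrays lay below both MCF-10F arrays. The TGFBI call was lost in 7 of 17 other settings. BGN fell back at 10 µM, reading 5.45 and 4.89 (-1.44 ± 0.29 from the clone, limma, adjusted p = 0.0351), and differed from MCF-10F by -0.00. Its fall from the clone was lost in 7 of 16 other settings.

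**Figure D4:**
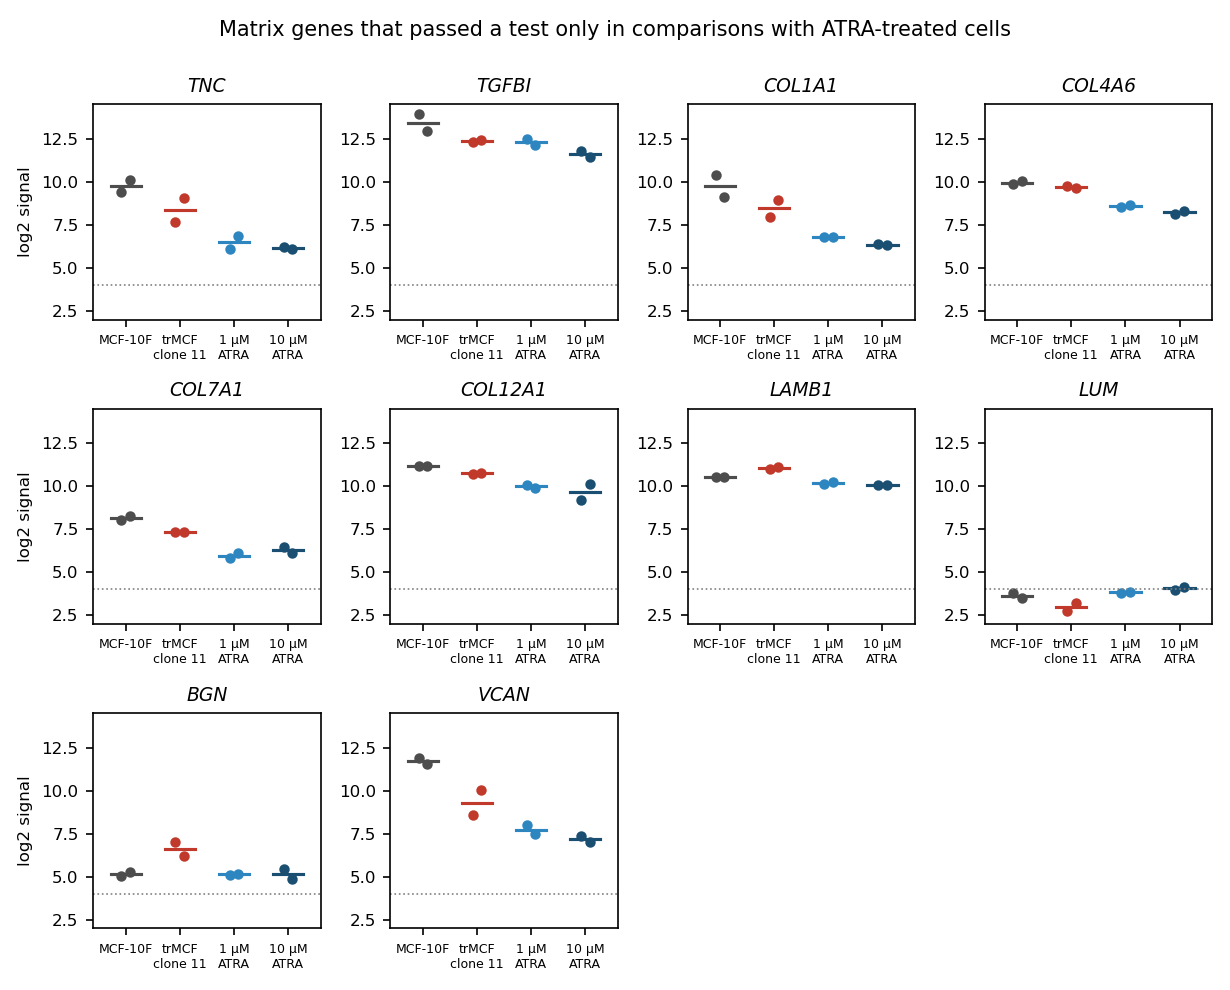
Log2 signal of the 10 genes that passed only in comparisons with ATRA-treated cells, drawn as for the clone genes: points are arrays, short lines group means of 2 arrays, and the dotted line a signal of 16. TNC, COL1A1, COL4A6, COL7A1, COL12A1, LAMB1 and VCAN are lower on all 4 ATRA arrays than on all 4 untreated arrays. The share of all genes with that pattern was not counted. BGN is high in the clone alone, and LUM lies near or under the dotted line.

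LAMB1 was the only laminin gene to pass in any comparison. It encodes the β1 chain and read 10.55 and 10.51 in MCF-10F, 11.00 and 11.12 in the clone, 10.14 and 10.24 at 1 µM and 10.05 and 10.10 at 10 µM. The clone arrays were the highest and the ATRA arrays the lowest. It fell by 0.99 from the clone at 10 µM (adjusted p = 0.0108), while -0.87 at 1 µM missed the threshold (adjusted p = 0.0521). LAMA4, an α chain of vascular and mesenchymal basement membranes, read 7.60 and 6.84, 6.80 and 7.42, 8.11 and 8.32 and 8.03 and 7.92 in the same order. All 4 ATRA arrays were above all 4 untreated arrays, by 1.11 ± 0.32 from the clone at 1 µM, without passing (adjusted p = 0.149). NID2 read 5.80 and 6.08 at 1 µM and 5.59 and 4.79 at 10 µM, above both clone arrays, and its difference of 1.62 ± 0.62 at 1 µM did not pass (adjusted p = 0.245), although it did in the fit of the 4 compared arrays and without either MCF-10F array.

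Of the genes that passed in no comparison, several were close in all groups. From the clone to 10 µM, LAMA5, NID1, HSPG2, COL18A1, COL6A1, COL6A2 and FBN2 differed by -0.04 to 0.01 on the log2 scale. The 95% interval for LAMA5 was -0.43 to 0.38 and that for COL18A1 was -0.44 to 0.35, so a change of 2-fold lies outside both. For MFAP5, by contrast, the interval of -3.15 to 0.39 spans a decrease of more than 2-fold and no change.

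The 2 doses were also set against each other. No member passed at 10 µM against 1 µM (limma, all 8 arrays), nor did any of the 19775 genes (0%). At an unadjusted p under 0.05, 1 member was higher (DCN) and 2 were lower (COL4A6 and COL8A1), against 1.02% and 0.668% of all genes. In a fit of the 4 dose arrays alone, 2 were higher and 8 lower (3.72% and 2.95% of all genes), with a lowest adjusted p of 0.341. Differences ranged from -1.72 (COL8A1) to 0.58 (DCN), and for 30 of the 46 genes the 95% interval lay within a 2-fold change in either direction. For 14 of the other 16 the interval held both no difference and a 2-fold one, and for COL8A1 (-2.68 to -0.75) and DCN (0.09 to 1.07) it reached 2-fold and left out 0, though neither passed after adjustment.

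A list of 37 other matrix genes was also chosen by name with earlier results known. Of these, 6 were lower in the clone than in MCF-10F (2.64% of all genes) and none was higher (1.88% of all genes). They were SPOCK1, COL4A4, MATN2, CCN2, NTN4 and COL4A3. SPOCK1 (testican-1, a proteoglycan) read 10.53 and 9.80 in MCF-10F, 5.79 and 5.26 in the clone, 6.12 and 6.00 at 1 µM and 6.06 and 5.76 at 10 µM, and stayed low (-4.10 ± 0.30 at 1 µM, adjusted p = 0.0111, and -4.25 ± 0.28 at 10 µM, adjusted p = 0.00133). MATN2 (matrilin-2) lay near background in ATRA-treated cells. With lower signals set to 16 it differed from MCF-10F by -2.49 at 1 µM (adjusted p = 0.0707) and by -2.46 at 10 µM (adjusted p = 0.0123). Neither gene's ATRA arrays came within 2-fold of an MCF-10F array.

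COL4A3 and COL4A4, the collagen IV chains of the glomerular and a few other basement membranes, were both lower in the clone. COL4A4 read 8.54 and 9.22 in MCF-10F, 5.48 and 4.89 in the clone, 7.82 and 7.81 at 1 µM and 6.87 and 7.14 at 10 µM. It rose from the clone at 1 µM (2.63 ± 0.29, adjusted p = 0.0281) and at 10 µM (1.82 ± 0.28, adjusted p = 0.0159), and remained -1.88 from MCF-10F at 10 µM (adjusted p = 0.0237). COL4A3 read 7.07 and 8.43, 4.07 and 4.74, 6.66 and 6.42 and 4.88 and 5.61, a partial rise that did not pass (2.14 ± 0.47 at 1 µM, adjusted p = 0.0875). CCN2, a matricellular protein induced by TGF-β, read 11.44 and 10.70, 8.12 and 8.66, 9.25 and 9.21 and 9.72 and 10.48 and rose at 10 µM (1.71 ± 0.34, adjusted p = 0.0322).

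Of 26 enzymes and helpers that modify collagen and elastin, 2 were lower (TGM2 and PLOD2) and 1 higher (PCOLCE) in the clone (2.64% and 1.88% of all genes). With ATRA, 2 of them fell from the clone at 1 µM (0.925% of all genes) and 6 at 10 µM (3.89% of all genes). LOX, the lysyl oxidase that cross-links collagen and elastin, read 10.55 and 11.85 in MCF-10F, 12.37 and 13.09 in the clone, 9.68 and 9.47 at 1 µM and 9.69 and 9.29 at 10 µM. It fell by 3.16 (adjusted p = 0.0445) and 3.24 (adjusted p = 0.0109) from the clone, to levels under both MCF-10F arrays. LOXL2, of the same family, fell by 1.84 (adjusted p = 0.0201) and 2.25 (adjusted p = 0.00804). The other 4 at 10 µM were P3H2 (-1.50), P4HA1 (-1.14), PCOLCE (-0.97) and PCOLCE2 (-0.91).

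PLOD2, the lysyl hydroxylase of collagen telopeptides, read 12.48 and 12.67 in MCF-10F, 11.00 and 11.18 in the clone, 11.25 and 11.31 at 1 µM and 11.30 and 11.23 at 10 µM and stayed low at both doses (-1.29, adjusted p = 0.0472, and -1.31, adjusted p = 0.00831, from MCF-10F). TGM2, a transglutaminase that cross-links fibronectin and other proteins, is a known retinoid-induced gene. It read 9.08 and 8.09, 6.18 and 5.46, 8.55 and 7.84 and 8.31 and 8.15 and rose at 10 µM (2.41 ± 0.39, adjusted p = 0.0198). At 1 µM it lay 2.37 above the clone, a similar difference that did not pass in the fit of 6 arrays. Its ATRA and MCF-10F arrays overlapped.

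**Figure D5:**
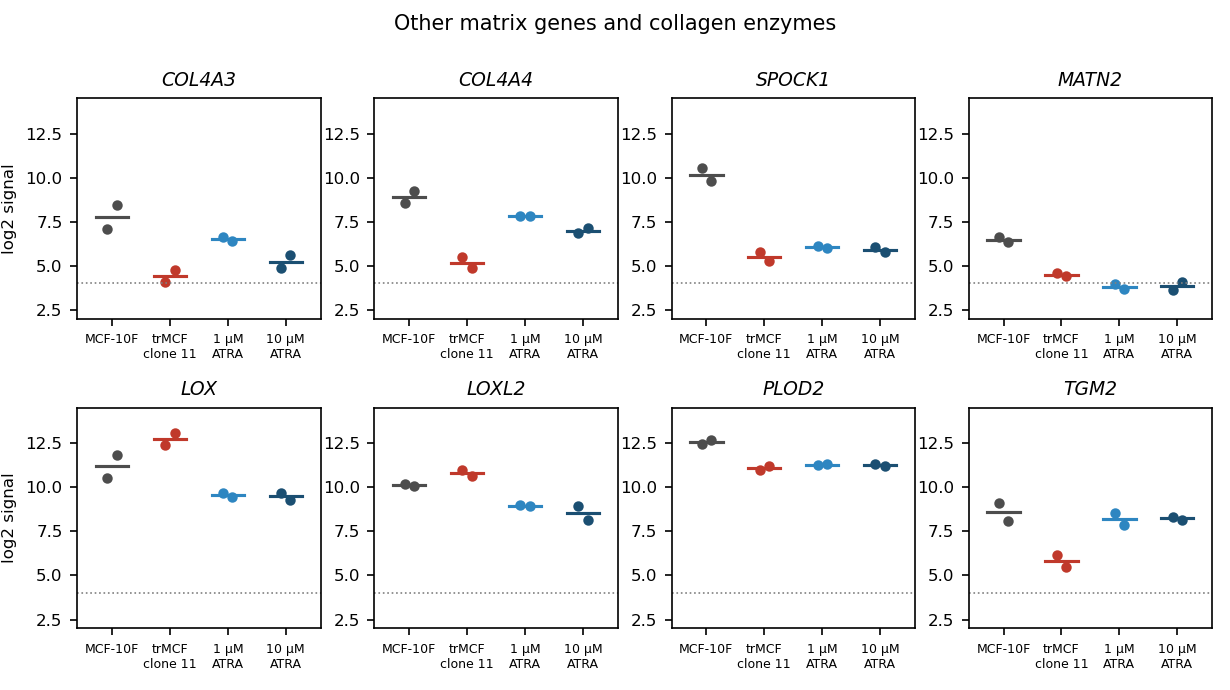
Log2 signal of 4 other matrix genes (top) and 4 modifying enzymes (bottom), drawn as in the plots of the matrix genes: points are arrays, short lines group means of 2 arrays, and the dotted line a signal of 16. SPOCK1 and PLOD2 stay low with ATRA, MATN2 lies near the dotted line, COL4A4 and TGM2 rise from the clone, and LOX and LOXL2 fall below the untreated arrays.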

How the data were processed

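RNA of 8 samples, 2 for each of 4 groups, was hybridised to 1-colour arrays, and groups were taken from sample titles. Before deposit, the authors summarised the probes to 1 linear intensity per probe set and array and normalized between arrays. The methods speak of MAS 5.0 global scaling and also of Iterative Plier 16, without saying from which the deposited intensity values come. Background and detection could not be recomputed, a fold change of a dim gene is uncertain, and the number of arrays limits the precision. The methods and the labels name different RNA kits.

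Of 54675 probe sets, 62 controls were left out. Of the others, 41091 name 1 gene, 1801 several and 11721 none in the platform annotation. Probe sets naming 1 gene entered gene values. Of the 46 matrix genes, 22 are read by a probe set whose suffix marks shared targets. Signals were tested as log2 values without further scaling in limma 3.58.1 (R 4.3.3; lmFit, eBayes), without covariates, with Benjamini-Hochberg adjustment over 54613 probe sets and a threshold of 0.05. MCF-10F, trMCF clone 11 and 1 µM were fitted on their 6 arrays, as the methods compared those groups, and each 10 µM comparison on all 8 arrays. Replicate numbers were not taken to pair the samples (see the closing section). A gene lower in the clone returned if it rose with ATRA, lay within 2-fold of MCF-10F and did not pass against it, stayed low if it still passed as lower, and was otherwise in between.

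Matrix genes passing in any comparison are given with every array, the others by name, range or count, and of each other list the genes with the smallest p. The members and all lists were chosen with earlier results of these data known, and no list was tested as a set. A few genes of these lists are not reported here. The alternatives were other fits, normalization, filters, floors, probe set choices and leaving out each array. The procedure was tested on simulated data.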

Additional observations from a re-analysis of the deposited data

Results flagged for a closer look

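COL8A1 lay on opposite sides of the clone at the 2 doses, though neither dose passed against the clone. The share of all genes with this array pattern was not counted. Both 1 µM arrays lay above, and both 10 µM arrays below, both trMCF clone 11 arrays, and the difference between the doses was -1.72 on the log2 scale (10 µM minus 1 µM). The difference did not pass the test after adjustment (limma, adjusted p = 1 with all 8 arrays and 0.341 with the 4 dose arrays alone).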

How the results depend on the processing

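Members passing the test numbered 12 in the clone against MCF-10F, 3 at 1 µM and 10 at 10 µM against the clone, and 10 and 15 against MCF-10F. Of the 50 single-gene differences that passed, 25 to 50 were recomputed in each of 18 alternatives, and none of those changed its direction. The methods' thresholds (2-fold and a p of 0.05, taken here as unadjusted) gave 20 for the clone (9.2% of all genes), 10 (7.89%) and 19 (3.72%) for 1 µM and 1 between the doses (0.101%), with 14 genes low at 1 µM, 14 at 10 µM and 0 returned at 10 µM. Without probe sets of shared targets, 7 passed in the clone, 5 at 10 µM against the clone, and 0 returned. All 8 arrays in every fit gave 16 in the clone, 6 at 1 µM against the clone, 1 return at 1 µM (LTBP1) and 11 genes that stayed low there. The 4 compared arrays alone gave 3 in the clone, 5 at 1 µM and 2 at 10 µM against the clone, 0 returned, and 3 that stayed low at either dose. A floor of 16 gave 3 in the clone, 0 and 3 at 1 µM, 3 and 9 at 10 µM, 0 returned, and 3 that stayed low at either dose. The mean over a gene's probe sets left 0 returned at 10 µM. Leaving out single arrays, with a lone array assumed to vary like the other groups, gave 3 to 16 in the clone, 0 to 6 and 1 to 13 at 1 µM, and 1 to 12 and 7 to 18 at 10 µM. By the same procedure 0 to 1 returned at either dose (LUM at 1 µM without trMCF clone 11 replicate 2), 1 to 10 stayed low at 1 µM and 3 to 11 at 10 µM. The cause of these shifts was not tested. The 1 µM and 10 µM arrays of a group differed over 2-fold for 0.126% and 0.211% of probe sets, against 3.48% in MCF-10F and 7.71% in the clone.

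Replicate numbers were not taken to pair the samples, since nothing in the labels ties them and deviations of same-numbered arrays correlated over 0.1 in 3 of 6 pairs of groups (-0.0562 to 0.351). With the replicate number as a block, 11 members passed in the clone, 3 and 8 at 1 µM, 9 and 15 at 10 µM and 0 between the doses, 6 stayed low at 1 µM and 8 at 10 µM, and 0 and 1 returned. Single calls lost under the block were DCN in the clone, COL4A6 at 1 µM against both groups, COL8A1 and VCAN at 1 µM against MCF-10F, COL1A1 and VCAN at 10 µM against the clone and COL12A1 at 10 µM against MCF-10F. Every count of members given here held within 1.5 times after quantile normalization, with a trended and robust prior, and when the dimmest 33% of probe sets were dropped.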
